A study of Mus musculus with 547 samples.

Results

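The nuclear genes for subunits of the mitochondrial respiratory chain and ATP synthase were followed through mouse (Mus musculus) fetal liver development. Members were all genes of the deposited count tables whose symbol begins with Nduf and a subunit letter and number, Cox and a digit from 4 to 8, Uqcr or Atp5, or is Sdha, Sdhb, Sdhc or Sdhd, with 3 pseudogenes left out. This gave 84 of 40824 genes: 35 of complex I, 4 of complex II, 8 of complex III, 20 of complex IV and 17 of complex V. Ndufa4 and its relative Ndufa4l2 were counted with complex IV, where Ndufa4 protein is found. The symbol rule also took in Cox7a2l, a factor that joins complexes into supercomplexes, Atp5s, known as factor B, and Atp5sl, a gene related to complex I assembly, and it passed over Cyc1, Cycs, Ndufab1, Usmg5 and Atpif1.

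The study asked how hepatoblasts, the progenitors of the fetal liver, give rise to hepatocytes and to cholangiocytes, the bile duct cells. Bulk RNA came from sorted DLK+ hepatoblasts and hepatocytes (DLK1 is a surface protein of hepatoblasts), with 2 libraries at each of 9 days from E10.5 to E18.5. Embryos between E10.5 and E17.5 gave 447 single cells, sorted as DLK+ or as EpCAM+ (an epithelial surface protein) and annotated by the authors as hepatoblast/hepatocyte or as cholangiocyte. A further 82 cells came from liver lobes of E12.5 embryos cultured for 2 days as explants with DMSO as carrier control, with 0.5 µM of the protein kinase C agonist TPPB, with 10 µM of the MEK1 and MEK2 inhibitor U0126, or with both; all explants shared the same medium with serum, EGF and an insulin, transferrin and selenium supplement. The strain and the number of embryos behind a library are not given in the sources used here, and nothing in the labels says that the 2 libraries of a day came from separate litters. Embryonic cells numbered 54, 36, 21, 39, 27, 39 and 35 in the DLK+ gate at E10.5, E11.5, E12.5, E13.5, E14.5, E15.5 and E17.5, and EpCAM+ cholangiocytes numbered 17, 36 and 34 at E14.5, E15.5 and E17.5. Reads of cells were summed by group and by the set number in their titles, and sums of at least 2 cells served as replicates.

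Complexes I and II take electrons from NADH and succinate, complex III passes them to cytochrome c, and complex IV hands them to oxygen, while complexes I, III and IV pump protons across the inner mitochondrial membrane. Complex V, the ATP synthase, uses the returning protons to make ATP. Most subunits are encoded in the nucleus and imported, and they are assembled with a few subunits made from mitochondrial DNA, whose 13 genes were not analysed here. The fetal liver makes blood cells while its hepatoblasts turn into hepatocytes, which in the adult are rich in mitochondria. Nuclear respiratory factor 1 (NRF1), GA-binding protein (GABP, a factor of the ETS family) and YY1 are known to bind promoters of many respiratory chain genes.

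Promoter sequence was taken from RefSeq on GRCm38.p6, from 250 bases before to 50 after each annotated start, and 66 of the 84 members had an entry, with 71 windows of 300 bases. Both strands were searched for the NRF1 core GCGCATGCG, the ETS core CCGGAAG and the YY1 core AAGATGGC. The NRF1 core stood in 8 of 66 members (12.1%) and in 1.95% of the 27025 genes of the table. The ETS core stood in 16 members (24.2%) and in 9.93% of all genes, and the YY1 core in 9 members (13.6%) and in 3.19% of all genes. At least 1 of the 3 cores was present in 28 members (42.4%, against 14.1% of all genes) and at least 2 in 5 members (7.58%, against 0.984%). The YY1 core fell mostly in complex I (7 of 31 genes searched) with 2 of 13 genes of complex V, and none was found in the genes searched of complexes II, III and IV. The NRF1 core was present in 2 genes of complex I, 2 of complex III, 1 of complex IV and 3 of complex V. A match describes these letters and is not a measured binding site.

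Windows of 200 bases are shown for members of each complex whose levels are described here, as examples of the 3 cores. They lie on the minus strand, from 170 bases before to 30 after the start, with matches in capitals, at chr2:36049309-36049508 (Ndufa8), chr3:51408926-51409125 (Ndufc1), chr9:50603820-50604019 (Sdhd), chr10:80406792-80406991 (Uqcr11), chr5:115348929-115349128 (Cox6a1) and chr5:108434370-108434569 (Atp5k). Ndufa8 and Uqcr11 hold an NRF1 core that reads CGCATGCGC on the strand shown, Uqcr11 an ETS core as well, Ndufc1 a YY1 core and Sdhd an ETS core.
Ndufa8: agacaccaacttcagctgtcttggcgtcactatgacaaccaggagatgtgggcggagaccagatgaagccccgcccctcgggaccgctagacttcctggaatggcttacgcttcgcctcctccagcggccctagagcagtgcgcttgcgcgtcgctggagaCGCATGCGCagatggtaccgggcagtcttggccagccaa
Ndufc1: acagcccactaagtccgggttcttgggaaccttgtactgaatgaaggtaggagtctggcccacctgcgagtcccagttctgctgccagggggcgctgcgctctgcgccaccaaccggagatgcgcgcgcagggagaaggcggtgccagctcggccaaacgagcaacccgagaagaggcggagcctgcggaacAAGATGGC
Sdhd: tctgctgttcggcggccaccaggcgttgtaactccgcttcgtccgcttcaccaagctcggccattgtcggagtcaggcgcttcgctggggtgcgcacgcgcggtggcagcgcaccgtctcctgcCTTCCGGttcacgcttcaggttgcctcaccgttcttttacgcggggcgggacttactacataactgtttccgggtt
Uqcr11: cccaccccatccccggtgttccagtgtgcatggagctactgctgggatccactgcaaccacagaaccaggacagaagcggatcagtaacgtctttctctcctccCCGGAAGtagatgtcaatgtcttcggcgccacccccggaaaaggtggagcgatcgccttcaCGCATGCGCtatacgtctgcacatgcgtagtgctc
Cox6a1: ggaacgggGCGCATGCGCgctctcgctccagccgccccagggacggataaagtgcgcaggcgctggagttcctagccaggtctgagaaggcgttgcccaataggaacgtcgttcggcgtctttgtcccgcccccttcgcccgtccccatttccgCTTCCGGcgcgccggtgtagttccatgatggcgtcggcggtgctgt
Atp5k: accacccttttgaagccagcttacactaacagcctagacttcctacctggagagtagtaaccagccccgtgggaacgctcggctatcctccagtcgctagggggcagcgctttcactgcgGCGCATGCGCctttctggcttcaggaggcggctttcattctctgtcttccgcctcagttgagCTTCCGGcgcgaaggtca
In Cox6a1 and Atp5k the capitals GCGCATGCGC read the same on both strands, so that 2 overlapping matches of the NRF1 core lie there, beside an ETS core that reads CTTCCGG on the strand shown. All 6 genes rose in the bulk course described next, as did nearly all members tested, so the rise was not particular to them. Among all genes tested 32.65% rose. Whether a core goes with a rise was not tested.

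Bulk libraries held 14385574 to 22791119 reads and single cells 763480 to 2111839, with a median of 1098050. The composition of the RNA changed strongly: the 20 genes of highest mean count, among them plasma protein genes such as albumin, took 6.85% of the reads of the bulk libraries at E10.5 and 39.5% at E18.5, and 17.05% in DLK+ cells at E10.5 and 40.9% at E17.5, against 23.4% in cholangiocytes at E17.5. Levels are therefore given in a pair of units. CPM, read counts scaled to library size by TMM, are centred on the typical gene, so a rise means a rise relative to the typical gene, whereas TPM, counts divided by gene length and scaled to a fixed total, are shares of all RNA. The labelled cell types showed their defining genes: a list of hepatoblast and hepatocyte genes summed to 27917 to 32859 CPM in bulk at E10.5 and 207940 to 214040 at E18.5, and a cholangiocyte list to 22.6 to 161 CPM in DLK+ sums of cells and 8974 to 11990 in cholangiocytes at E17.5. In bulk, mesenchymal genes went from 941 to 1278 CPM at E10.5 to 7.77 to 64.2 at E18.5, and erythroid and leukocyte genes reached up to 312 and 522 CPM at E14.5. The part of these other cells in the results was not tested, and in bulk libraries fewer cells of a type and less RNA per cell cannot be told apart.

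From E10.5 to E18.5 nearly every nuclear respiratory chain gene rose relative to the typical gene in bulk DLK+ cells. Of 80 members tested, 77 rose and 1 fell (edgeR's quasi-likelihood test, Benjamini-Hochberg adjusted p below 0.05, n = 2 libraries a day), where 32.65% of all genes tested rose and 32.50% fell. The members' median log2 change was 1.45, against -0.02 over all genes. All 78 changed members had libraries that did not overlap between the days, a count made for members alone, so nothing is read from it. Cox8b and Cox8c had no read in bulk, Cox7b2 had 1 and Cox6a2 had 21, and these 4 members were too low to test. On total reads instead of TMM, where the median of all genes moved to -1.45, the split became 14 higher and 12 lower, with a median of 0.02 over the members, so that the median member kept its share of all reads. With trends of GC content and gene length taken out, 63 rose and 2 fell.

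In complex I, 34 of 35 members rose, with a median of 1.29. Ndufa8, an accessory subunit facing the intermembrane space, had 31.3 and 29.7 CPM in the E10.5 libraries, 83.1 and 78.6 at E13.5, 69.4 and 63.8 at E14.5, and 138 and 128 at E18.5. The E18.5 libraries lay above all earlier ones named here, with a log2 change from E10.5 of 2.12 ± 0.18 (SE, adjusted p = 8.22e-08). Ndufb9, an accessory subunit of the membrane arm, went from 45.4 and 42.6 to 199.2 and 167.5 CPM, a change of 2.06 ± 0.20 (adjusted p = 4.38e-07). Ndufc1, a small accessory subunit with the YY1 core shown above, went from 21.1 and 18.7 to 78.1 and 67.9 CPM (1.88 ± 0.19). Ndufv1, a core subunit that binds NADH and flavin, rose by 1.07 ± 0.22 (adjusted p = 0.000594), and Ndufs1, the largest iron-sulphur subunit, by 0.68 ± 0.16 (adjusted p = 0.00188). Ndufs1 had 131 and 122 CPM at E10.5, 84.2 and 108 at E13.5 and 223 and 183 at E18.5, so it was lower at E13.5 than at both ends. Its call was lost without E18.5 library #1 (adjusted p = 0.0915). The member of complex I that did not pass was Ndufb2, with 0.41 (adjusted p = 0.252).

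All 4 genes of complex II, which is also an enzyme of the citric acid cycle, rose with a median of 1.59. Sdhd, a membrane anchor, went from 171 and 141 CPM at E10.5 to 522 and 429 at E18.5 (1.61 ± 0.23, adjusted p = 1.84e-05), and Sdhc, the other anchor, rose by 1.73 ± 0.17. The flavoprotein Sdha rose by 1.29 ± 0.20 and the iron-sulphur protein Sdhb by 1.57 ± 0.19. In complex III all 8 members rose, with a median of 1.83, the highest median of the complexes. Uqcrq, a small subunit at the membrane, had 46.7 and 39.9 CPM at E10.5, 165 and 161 at E13.5, 99.5 and 97.6 at E14.5, and 186 and 197 at E18.5. The early rise, the dip at E14.5 and the later rise were each shared by both libraries, and the change from E10.5 to E18.5 was 2.14 ± 0.25 (adjusted p = 3.24e-06). Uqcr11, another small subunit, rose by 1.97 ± 0.24. The Rieske iron-sulphur protein Uqcrfs1, which hands electrons on within the complex, went from 74.7 and 68.0 to 279 and 267 CPM (1.94 ± 0.15, adjusted p = 3.9e-08), and the core protein Uqcrc1 rose by 1.31 ± 0.21.

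In complex IV, 14 of 16 members tested rose and 1 fell, with a median of 1.76. Cox4i1, the usual form of the largest nuclear subunit, went from 210 and 180 CPM at E10.5 to 678 and 615 at E18.5 (1.73 ± 0.22, adjusted p = 6.87e-06). Cox6a1, the form found outside muscle, had 48.8 and 56.2 CPM at E10.5, 277.0 and 169 at E13.5 and 204 and 255 at E18.5, so that its level was already high at E13.5 (2.13 ± 0.32 from E10.5 to E18.5). Cox7b rose by 2.05 ± 0.17, and Cox5a, which went from 43.0 and 42.7 to 91.2 and 115 CPM, rose by 1.26 ± 0.24. The call of Cox5a was lost with GC and length trends taken out (adjusted p = 0.114). All 17 members of complex V rose, with a median of 1.36. The catalytic beta subunit Atp5b, whose mean TPM in bulk was the highest of all members, went from 972 and 905 to 2310 and 2317 CPM (1.30 ± 0.21, adjusted p = 6.85e-05). The alpha subunit Atp5a1 rose by 1.02 ± 0.21, subunit b (Atp5f1) by 1.79 ± 0.16 and the stalk protein Atp5o by 1.77 ± 0.20. Atp5k, whose promoter window is shown above, had 44.3 and 39.7 CPM at E10.5, 112 and 121 at E13.5 and 104 and 92.6 at E18.5 (1.23 ± 0.24).

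**Figure D1:**
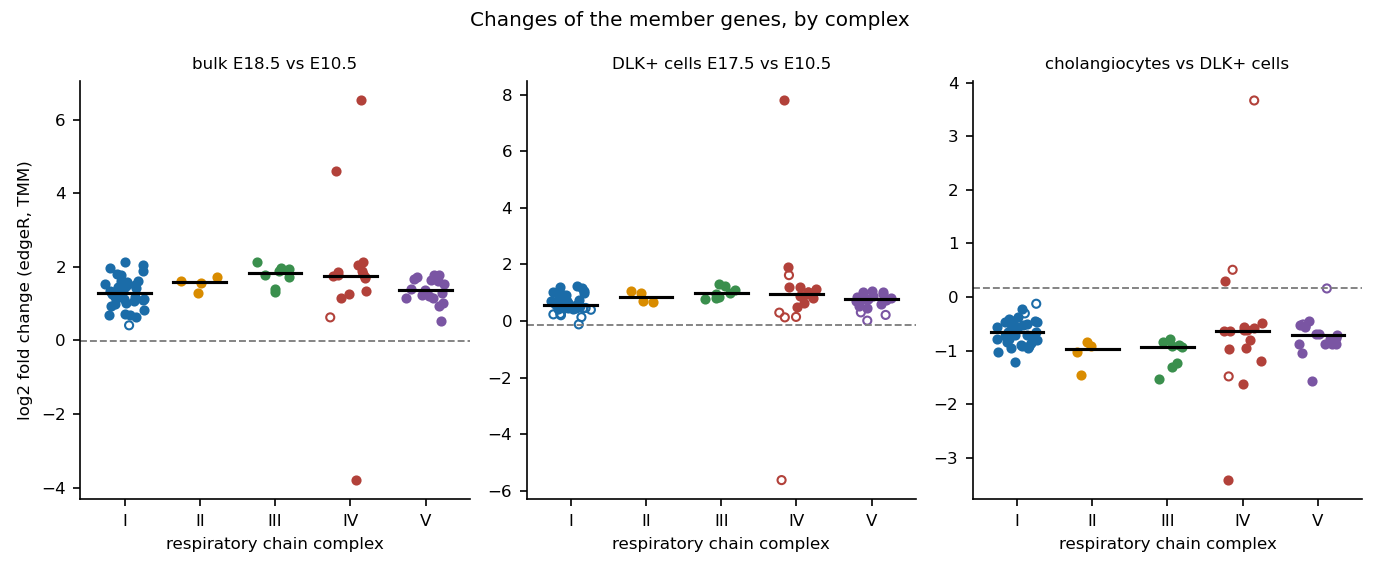
Log2 fold change of each member gene (vertical axis, edgeR with TMM) by complex (horizontal axis) in 3 comparisons; filled points passed the test, open points did not, black bars are medians and the dashed line is the median of all genes tested. Nearly all members lie above the dashed line in both time courses, with medians by complex of 1.29 to 1.83 in bulk, and below it in cholangiocytes against DLK+ cells.

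As a share of all RNA the picture was different. The summed level of the 84 members was 21730 ± 515 TPM (SD, n = 2) at E10.5, 25427 ± 486 at E13.5 and 17557 ± 629 at E18.5, a log2 ratio of -0.31 ± 0.06 between the last and the first day. With the 20 most abundant genes taken out of the total it was 24013 ± 696, 32227 ± 153 and 31630 ± 404 TPM, a ratio of 0.40. The direction over the whole course thus depended on whether the 20 most abundant genes stayed in the total, while the increase up to E13.5 was present on both scales. Complexes I and V went from 5681 to 4191 TPM and from 7821 to 5563 TPM between E10.5 and E18.5. Complex III had 2338 TPM at E10.5 and 2244 at E18.5, and complex IV had 4907 TPM at E10.5 and 4745 at E18.5. The log2 ratios were -0.06 ± 0.11 for complex III and -0.05 ± 0.10 for complex IV (SD), within their spread, against -0.44 ± 0.04 for complex I and -0.49 ± 0.07 for complex V. As shares of counts these ratios were 0.25 ± 0.13 for III, 0.32 ± 0.08 for IV, -0.13 ± 0.04 for I and -0.12 ± 0.07 for V. In TPM without the 20 most abundant genes they were 0.65 ± 0.13, 0.66 ± 0.03, 0.27 ± 0.03 and 0.21 ± 0.05 in the same order, so on all 3 scales complexes III and IV had higher ratios than I and V. The TPM scale corrects for gene length, and single members on it went both ways: Atp5b had 1891 and 1866 TPM at E10.5 and 1236 and 1423 at E18.5, Cox4i1 had 1021 and 931 and then 909 and 946, and Ndufa8 had 136 and 136 and then 164 and 175.

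**Figure D2:**
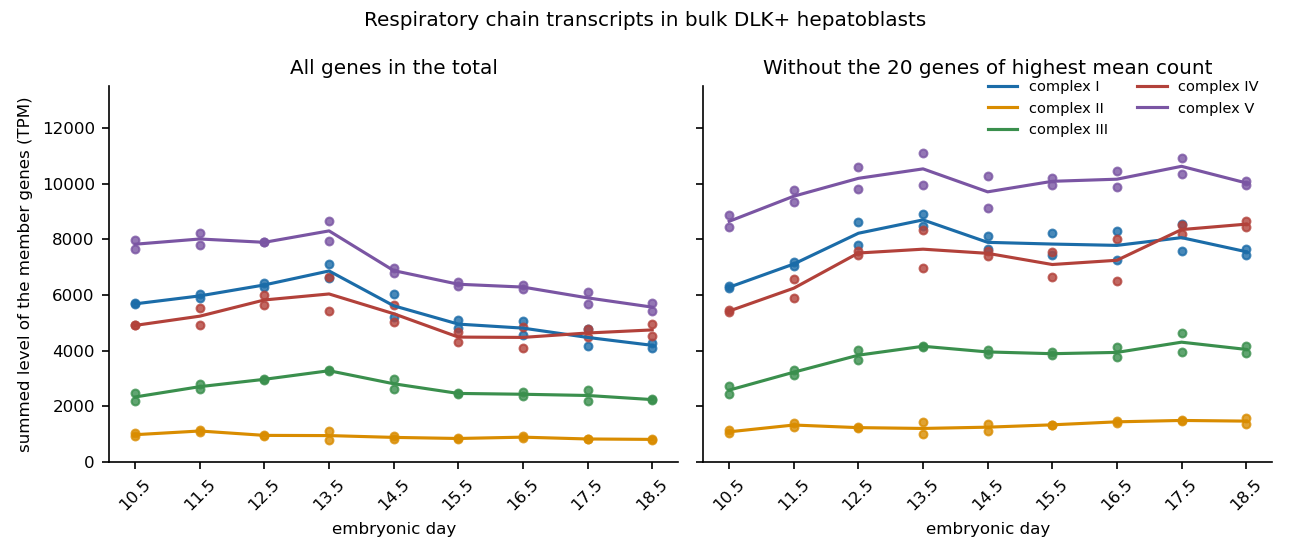
Summed level of the member genes of each complex in TPM (vertical axis) by embryonic day (horizontal axis) in bulk DLK+ cells, with all genes in the total (left) and with the 20 genes of highest mean count taken out (right); points are libraries and lines join the means of 2. On the left, complex V peaks near 8300 TPM at E13.5 and ends at 5563; on the right it ends at 10021, above its start of 8643.

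Day by day, the calls were unevenly spread, and a step without calls does not show that the members kept their levels. Consecutive steps share a day's libraries, and each step rests on 2 libraries a day. From E10.5 to E11.5, 6 members rose and none fell, where 9.55% of all genes rose and 3.82% fell, so the share of members that rose was no larger than that of all genes. The 6 were Ndufs8 (0.81 ± 0.16), Ndufa6, Sdhc, Cox7a1, Cox7b and Atp5g1, and leaving out 1 library left 0 to 2 calls (1 without E10.5 #1 or E11.5 #1, 0 without E10.5 #2 and 2 without E11.5 #2). From E11.5 to E12.5 no member was called, where 0.426% of all genes rose and 0.0458% fell. At an unadjusted edgeR p below 0.05, 47 members were higher, DESeq2 called 3, and 14 were called without E12.5 #1. The members' median log2 change was 0.46 in this step, against 0.36 in the one before. Here and below, shares of all genes belong to adjusted edgeR calls of the main fit. Counts at an unadjusted p, by DESeq2 or without 1 library have no such share beside them. From E12.5 to E13.5, 8 members rose, where 5.07% of genes rose and 9.43% fell: Ndufa11, Ndufb4, Ndufs7, Ndufa3, Ndufs8, Sdhc, Uqcr10 (0.80 ± 0.22) and Atp5j2 (0.70 ± 0.18). This count was 0 without E12.5 #1 or E13.5 #2, 3 without E13.5 #1 and 20 without E12.5 #2.

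From E13.5 to E14.5 the members parted: 20 fell and 4 rose, where 11.45% of all genes fell and 15.39% rose. The falls took in 12 members of complex I, 1 of complex II, 2 of complex III and 5 of complex V, and none of complex IV. Among them were Ndufs7 (-0.86 ± 0.21), an iron-sulphur subunit next to the quinone site, Ndufa11 (-0.87 ± 0.21), Sdhb (-0.66 ± 0.19), Uqcrq (-0.73 ± 0.24) and the delta subunit of the synthase, Atp5d (-0.92 ± 0.27). The rises were Ndufs1 (0.53 ± 0.16), Ndufb3 (0.52 ± 0.16), Uqcrb (0.59 ± 0.20) and Atp5s (0.81 ± 0.21). With GC and length trends taken out, 3 falls and no rise were left, and without single libraries the called members numbered 10 (E13.5 #1), 3 (E13.5 #2), 6 (E14.5 #1) and 9 (E14.5 #2). Summed over all members the share of RNA went from 25427 ± 486 to 21510 ± 1061 TPM on that day. The days E15.5 and E16.5 brought no calls. At E15.5 0.190% of all genes rose and 0.0262% fell, 4 members were higher and 1 lower at an unadjusted p below 0.05, and DESeq2 called 1. At E16.5 the shares of all genes were 0% and 0%, 1 member was higher at an unadjusted p below 0.05, and DESeq2 called 0.

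Between E16.5 and E17.5, 12 members rose and none fell, where 5.89% of genes rose and 7.21% fell. Complex IV gave 6 of the 12, namely Ndufa4l2, Ndufa4 (0.67 ± 0.17), Cox6c (0.67 ± 0.18), Cox7a2 (0.62 ± 0.17), Cox6b1 and Cox7a2l (0.61 ± 0.15), and complexes I, III and V gave 2 each, among them Ndufs3 and Uqcr11. The count was 7 without E16.5 #1, 0 without E16.5 #2 and 1 without E17.5 #1, and 22 with DESeq2. From E17.5 to E18.5 no member was called, where 3.08% of genes rose and 4.44% fell; 2 members had higher values by an unadjusted p below 0.05 and DESeq2 called 0.

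The chain has subunits with several forms encoded by separate genes, and the largest change of all members was in one of these. Ndufa4l2 (ENSMUSG00000040280, GRCm38 chromosome 10, 127514967 to 127517154) is a relative of the complex IV subunit Ndufa4 and is known as a gene induced in low oxygen. It had 0.53 and 0.76 CPM in the E10.5 libraries, 2.48 and 0.61 at E13.5, 3.74 and 4.83 at E15.5, 13.2 and 4.77 at E16.5, 48.6 and 50.1 on E17.5, then 90.0 and 29.1 on E18.5. The libraries of the last 2 days lay above all those of earlier days named here, the E18.5 libraries differed widely from each other, and the change from E10.5 was 6.52 ± 0.67 (adjusted p = 7.42e-07). The step from E16.5 to E17.5 was 2.45 ± 0.53 (adjusted p = 0.00692). Of the summed TPM of Ndufa4 and Ndufa4l2, the latter made up 0.42% ± 0.12 (SD, n = 2) at E10.5, 8.91% ± 1.20 on E17.5, and on E18.5 it was 9.40% ± 6.19.

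Cox7a1, the form of this subunit in heart and skeletal muscle, rose by 4.61 ± 0.47 (adjusted p = 7.56e-07) but stayed low, from 0.34 and 0.28 CPM to 9.79 and 5.62. Its share of Cox7a1, Cox7a2 and Cox7a2l together was 1.09% ± 0.14 at E10.5, 7.06% ± 0.13 at E13.5 and 6.88% ± 2.40 at E18.5. Cox4i2, the form of Cox4 found mainly in lung, was the member that fell. Its 47 reads in the E10.5 libraries stood against 1 read at E18.5, a 15.4-fold ratio with an exact counting interval of 2.63 to 619 (95%), and the call was lost without E18.5 #2 (adjusted p = 0.0531). Cox6b2, the form known from testis, did not pass (0.63, adjusted p = 0.233) and held 2.27% ± 0.91 of both forms at E10.5, 5.66% ± 2.75 at E14.5 and 1.09% ± 0.35 at E18.5. The genes Atp5g1, Atp5g2 and Atp5g3 encode the same mature subunit c of the proton-carrying ring behind different import sequences. Atp5g1 rose by 1.73 ± 0.19, Atp5g3 by 1.22 ± 0.18 and Atp5g2 by 0.54 ± 0.21, and the share of Atp5g2 in their summed TPM went from 28.3% ± 1.15 to 19.3% ± 2.60. The call of Atp5g2 (adjusted p = 0.0359) was lost with DESeq2. Many genes of these families have processed copies elsewhere in the genome, and how reads that match several places were counted is not given in the sources used here, so shares between close forms carry that uncertainty.

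**Figure D3:**
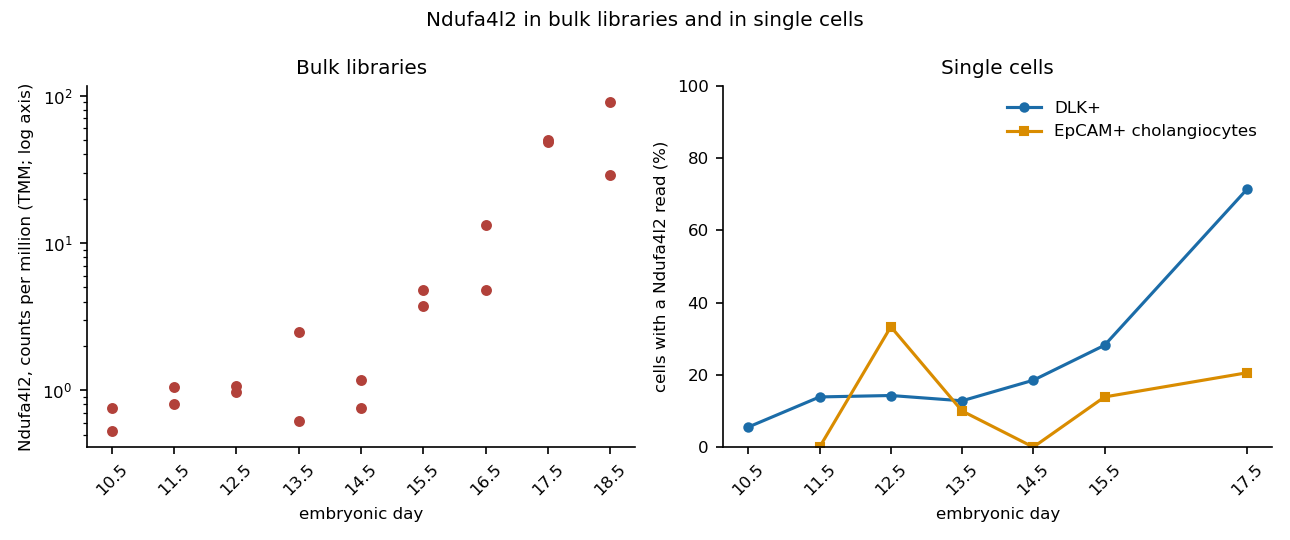
Ndufa4l2 in each bulk library (left; CPM, log axis, by embryonic day) and the share of single cells with at least 1 Ndufa4l2 read (right; percent, by embryonic day, DLK+ cells and EpCAM+ cholangiocytes). The bulk level climbs from under 1 CPM at E10.5 to 29.1 and 90.0 at E18.5, and the share of DLK+ cells reaches 71.4% at E17.5.

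Single DLK+ cells were measured from E10.5 to E17.5, and their members rose too. Between E10.5 and E17.5, 63 of 81 members tested rose and none fell (3 and 4 sums of cells), where 14.23% of all genes rose and 15.23% fell. The median of the members was 0.76, against -0.13 over all genes. Sums did not overlap between the days for 61 of the 63 that rose, a count again made for members alone. By complex, 25 of 35 rose in complex I, 4 of 4 in II, 8 of 8 in III, 12 of 17 in IV and 14 of 17 in V, with medians of 0.58, 0.85, 0.98, 0.94 and 0.78. On total reads the split turned to 1 higher and 46 lower, with the median of all genes at -1.27 and that of the members at -0.39, and with ERCC spike-in reads as the library size 6 rose and none fell (members' median 0.51).

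Uqcrq (chromosome 11, 53427922 to 53430831) had 191, 189 and 178 CPM in the E10.5 sums, 297, 312 and 281 at E13.5, 214, 229 and 292 at E14.5, and 435, 465, 480 and 390 at E17.5. All E17.5 sums lay above every sum of the earlier days named, a change from E10.5 of 1.25 ± 0.13 (adjusted p = 1.93e-09). Ndufb10 (chromosome 17, 24722060 to 24724478), an accessory subunit of the membrane arm of complex I, had 131, 120 and 129 CPM at E10.5 and 300.1, 300.2, 341 and 265 at E17.5, a rise of 1.25 ± 0.14 (adjusted p = 1.33e-08). Sdhd rose by 1.00 ± 0.11, from 372, 422 and 449 CPM to 795, 822, 798 and 901. Cox7b (chromosome X, 106015700 to 106022450) rose by 1.21 ± 0.16 and the complex IV subunit Ndufa4 by 1.22 ± 0.19, while Cox4i1 rose by 0.94 ± 0.14. Atp5b had 2296, 2403 and 2410 CPM at E10.5 and 4238, 4383, 4193 and 4429 at E17.5, with no overlap and a narrow spread (0.86 ± 0.09, adjusted p = 2.17e-09). Members that did not pass included Ndufs1 (0.40), Ndufs8 (0.20), Cox5a (0.30), Cox7a2l (0.13) and Atp5g2 (0.30).

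Part of the change came before E13.5 and part after it. From E10.5 to E13.5, 33 members rose and none fell, where 6.25% of genes rose and 1.27% fell: 11 of complex I, 4 of II, 6 of III, 6 of IV and 6 of V. Uqcr10 (0.76 ± 0.16), Uqcrc1 (0.74 ± 0.13) and Uqcrq (0.67 ± 0.13) were among them. The count was 14, 21 and 11 without E10.5 set 1, 2 or 3, and 15 and 18 without E13.5 set 2 or 3; it was 20 with RLE normalization, 12 without a filter on low counts, 6 with the length trend taken out, 2 on total reads and 1 with ERCC reads. From E13.5 to E17.5, 32 rose and none fell, where 7.04% of genes rose and 8.33% fell, with 9 of complex I, 2 of II, 5 of III, 8 of IV and 8 of V. Ndufa4 (0.99 ± 0.18), Cox7b (0.77 ± 0.15) and Uqcrfs1 (0.69 ± 0.12) were among them. Without E13.5 set 1 or set 3 the count was 21. On total reads none rose and 50 fell, and with ERCC reads none was called. These comparisons share sums with each other.

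Summed over all members, DLK+ cells held 42014 ± 1159 TPM (SD, n = 3 sums) at E10.5, 40513 ± 1134 at E13.5 and 30218 ± 1378 (n = 4) at E17.5. Without the 20 most abundant genes the level was 53024 ± 933 and 56272 ± 2337 TPM at the first and last day. Member reads per ERCC read were 1.09 ± 0.20 at E10.5, 0.84 ± 0.08 at E14.5 and 1.62 ± 0.43 at E17.5, with the last day's spread wide. This measure did not rise steadily. Its medians over DLK+ cells were 1.11 at E10.5, 1.71 at E13.5, 0.87 at E14.5 and 1.77 at E17.5. The E15.5 median also lay below that of E13.5. Reads of all genes per ERCC read dropped at E14.5 too, from a median of 66.4 at E13.5 to 36.4, and reached 97.7 at E17.5. The cause of the drop was not tested. Over single cells the summed level ran from 37938 to 47376 TPM over the 54 cells of E10.5, with a median of 41705, and from 22313 to 41008 over the 35 cells of E17.5, with a median of 30407. A cell had reads for a median of 76 to 77 members in the groups of E10.5, E14.5 and E17.5.

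Ndufa4l2 spread through the DLK+ cells late. A read was present in 3 of 54 cells at E10.5 (5.56%, Clopper-Pearson 95% interval 1.16 to 15.4%), in 11 of 39 at E15.5 (28.2%, 15 to 44.9%) and in 25 of 35 at E17.5 (71.4%, 53.7 to 85.4%). In cholangiocytes it was 0 of 17 cells at E14.5, which by the limit of 3 cells allows a share of up to 17.6% (exact upper bound 19.5%), and 7 of 34 at E17.5 (20.6%, 8.7 to 37.9%). The E17.5 DLK+ sums had 7.27, 18.51, 59.9 and 110.7 CPM, a wide range whose lowest value lay above the E10.5 sums of 0.14, 0.47 and 0.00 (7.80 ± 2.23, adjusted p = 0.00772). Cox4i2 had reads in 5 of 54 cells at E10.5 (9.26%, 3.08 to 20.3%) and in 0 of 35 at E17.5, which by the same limit allows up to 8.57% (exact upper bound 10%). All these intervals and limits count cells as independent and leave out differences between sets.

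Cholangiocytes had lower levels of nearly all members than DLK+ cells of the same days. Pooled over E14.5 and E15.5 with E17.5 (9 against 10 sums), 73 of 81 members were lower and 1 higher, where 16.01% of all genes were lower and 19% higher. The median of the members was -0.72, against 0.16 over all genes. All of complexes II (4 of 4, median -0.98) and III (8 of 8, -0.93) fell below the DLK+ cells, with 33 of 35 in complex I (-0.65), 13 of 17 in IV (-0.63) and 15 of 17 in V (-0.70). Of the 74 changed members 37 had sums that did not overlap, a count again made for members alone. On total reads, where the median of all genes moved to 0.69, 38 were lower and 5 higher. With ERCC reads as the library size 72 were lower and none higher, a count given without the share of all genes. Reads of all genes per ERCC read were lower in cholangiocytes too. Their medians over cells were 27.5 in cholangiocytes and 36.4 in DLK+ cells at E14.5, 37.6 and 48.0 at E15.5, and 40.6 and 97.7 at E17.5.

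Atp5g1 (chromosome 11, 96068852 to 96075670) showed the largest difference in complex V: the means were 97.1 CPM in cholangiocytes and 293 in DLK+ cells, a difference of -1.57 ± 0.08 (adjusted p = 6.11e-16). At E17.5 its sums were 93.9, 80.0 and 65.4 CPM in cholangiocytes and 342, 310.5, 402 and 310.4 in DLK+ cells, far apart. Its share of the 3 subunit c genes was 5.42% ± 1.00 in cholangiocytes and 11.7% ± 1.21 in DLK+ cells at E17.5. Uqcrq differed by -1.52 ± 0.08 (adjusted p = 2.55e-16), with 99.0, 96.4 and 102 CPM at E17.5 in cholangiocytes. Sdhd differed by -1.46 ± 0.07 (means 264 and 736 CPM), Ndufb10 by -1.22 ± 0.08 (95.2 and 234) and Cox7b by -1.20 ± 0.09 (253 and 617). Atp5b, with means of 2153 and 3982 CPM, differed by -0.88 ± 0.05 (adjusted p = 9.46e-15). Levels of these genes in cholangiocytes at E17.5 lay below those of E10.5 DLK+ cells: Uqcrq was below 178, Atp5b had 1867, 1543 and 1957 CPM, and Sdhd had 257, 209 and 235.

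The gene that stood higher in cholangiocytes was Cox7a2l (chromosome 17, 83501918 to 83517330), the supercomplex factor, with means of 171 and 139 CPM (0.29 ± 0.09, adjusted p = 0.0148). Its E17.5 sums were 216, 166 and 189 CPM in cholangiocytes and 120, 147, 164 and 130 in DLK+ cells, just without overlap, but at E14.5 they were 112, 140.03 and 184 against 132, 144 and 138, with overlap. The call was lost without E14.5 cholangiocyte set 3, E15.5 DLK+ set 1 or set 4, or E17.5 DLK+ set 1. Members that did not pass were Ndufb7 (-0.13) and Ndufa3 (-0.31) of complex I, the rare forms Cox4i2, Cox6b2 and Cox6a2, and Atp5s and Atp5sl. As a share of all RNA the lineages were close at E17.5, with 28654 ± 1424 TPM in cholangiocytes (n = 3) and 30218 ± 1378 in DLK+ cells, a log2 ratio of -0.08 ± 0.10. By complex this ratio was 0.05 ± 0.17 for I, -0.45 ± 0.15 for II, -0.37 ± 0.13 for III, -0.04 ± 0.13 for IV and -0.06 ± 0.05 for V, so complexes II and III were lower on this scale too. Without the 20 most abundant genes the levels were 41490 ± 2315 and 56272 ± 2337 TPM. Mesenchymal genes summed to 212 to 344 CPM in cholangiocytes and 2.74 to 17.8 in DLK+ cells, and the hepatocyte list to 45677 to 64420 CPM in cholangiocytes at E17.5, and their part in these differences was not tested.

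**Figure D4:**
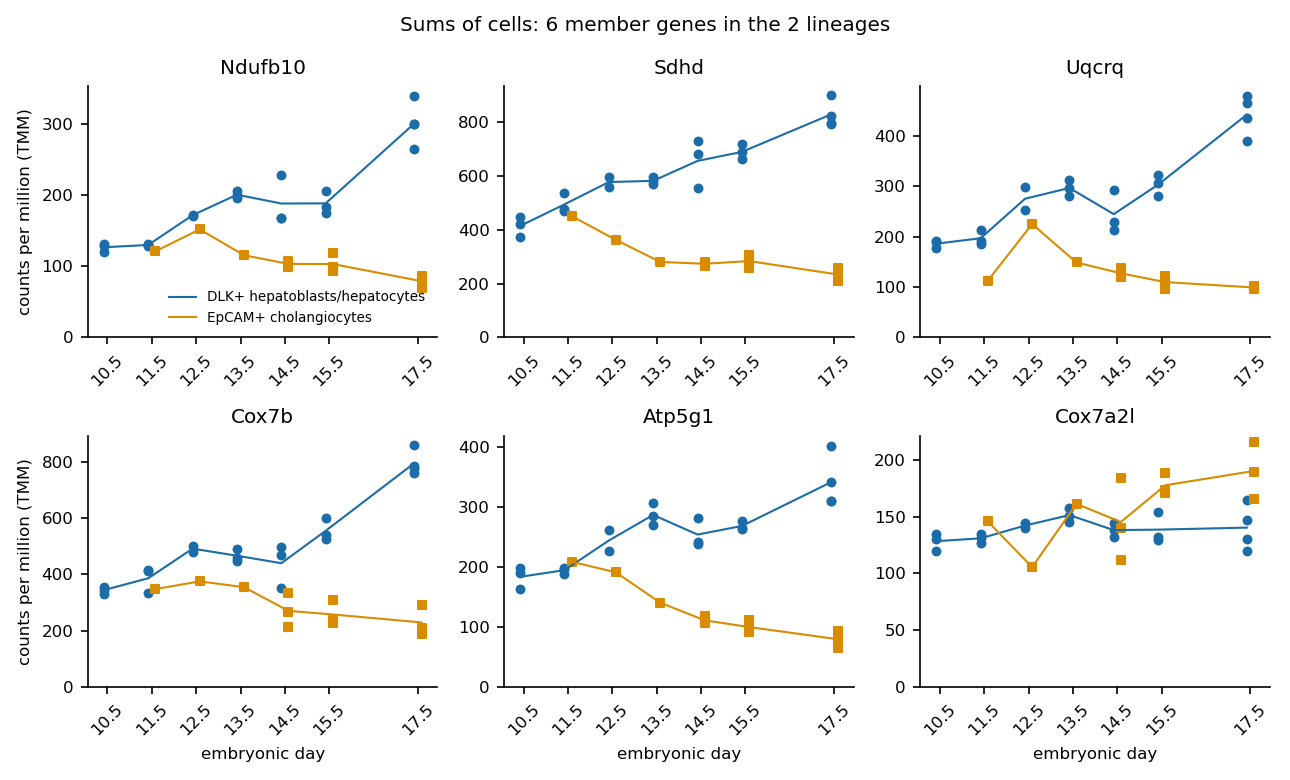
CPM of 6 member genes (vertical axes, from 0) by embryonic day (horizontal axis) in sums of DLK+ cells and of EpCAM+ cholangiocytes; each point is a sum and lines join the means. Ndufb10, Sdhd, Uqcrq, Cox7b and Atp5g1 climb in the DLK+ cells, Uqcrq to 390 to 480 CPM at E17.5, and stay low in cholangiocytes, while Cox7a2l lies between 112 and 216 CPM in the sums named in the text.

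The lineages also changed differently between E14.5 and E17.5. Within cholangiocytes 5 members fell and none rose, where 2.13% of genes fell and 1.16% rose: Ndufs8 (-0.58 ± 0.15), Sdha (-0.61 ± 0.14), Uqcrc1 (-0.54 ± 0.13), Atp5b (-0.46 ± 0.09) and Atp5o (-0.53 ± 0.13). They come from complexes I, II, III and V. Without single sets the count ran from 1 to 8: 8, 3 and 2 without E14.5 set 1, 2 or 3, and 8, 1 and 3 without E17.5 set 1, 3 or 4. With ERCC reads as the library size none was called, and all 5 turned slightly positive.

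The difference between the changes of both lineages was tested as an interaction. It was negative for 27 members and positive for none, where 2.11% of genes were negative and 1.10% positive, with a median of -0.60 over the members. The 27 were 7 members of complex I, 2 of II (Sdhc and Sdhd), 5 of III, 6 of IV and 7 of V. Uqcrq gave -1.22 ± 0.18 (adjusted p = 7.6e-05): its DLK+ sums went from 214, 229 and 292 CPM to 435, 465, 480 and 390, and its cholangiocyte sums from 119, 125 and 137 to 99.0, 96.4 and 102. Atp5o gave -1.05 ± 0.18 (adjusted p = 0.00046), Ndufb10 -1.06 ± 0.20 (adjusted p = 0.00141), Cox7b -1.09 ± 0.22 (adjusted p = 0.0036) and Uqcrfs1 -0.70 ± 0.17 (adjusted p = 0.0164). Atp5b gave -0.68 ± 0.13 (adjusted p = 0.00134): its DLK+ sums had 3295, 3764 and 4088 CPM at E14.5 and 4193 to 4429 at E17.5, and its cholangiocyte sums 2392, 2462 and 2546 and then 1543 to 1957. The count was 9 without E14.5 DLK+ set 1, 16 without E14.5 DLK+ set 2, 14 without E14.5 cholangiocyte set 3 and 15 without E17.5 cholangiocyte set 3 or set 4. On total reads the split was 3 positive and none negative, and with ERCC reads none was called.

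EpCAM+ cells annotated as hepatoblasts were compared with DLK+ hepatoblasts of the same days, and no member was called, where 0.0238% of genes were higher and 0% lower. By edgeR 1 member was lower at an unadjusted p below 0.05, and DESeq2 called 0. The summed levels were 35930 ± 760 TPM in EpCAM+ hepatoblasts and 36322 ± 1451 in DLK+ cells at E14.5 (n = 3 each), against 31869 ± 1307 in EpCAM+ cholangiocytes of that day. For the hepatoblasts of both gates the values were 39202 ± 1429 (n = 2) and 39243 ± 1211 (n = 3) at E11.5, 37351 ± 3772 (n = 2) and 40169 ± 1394 (n = 2) at E12.5, and 37229 ± 3481 (n = 2) and 40513 ± 1134 (n = 3) at E13.5. The gates were closest at E11.5 and E14.5, and at E12.5 and E13.5 the EpCAM+ means were lower, with a wide spread between their 2 sums. At E14.5 set 3 of each gate and cell type came from the second deposit round and the other sets from the first. In the labels, 1 of the 7 cells in the E14.5 cholangiocyte set 3 carries the culture text of the explants, and it was kept as an embryo cell because its other labels say so.

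In EpCAM+ explant cells the TPPB sums differed from control in 1 member, Ndufa6. Tested were 35 members of complex I, 4 of II, 8 of III, 17 of IV and 17 of V. The share of members that fell was no larger than the 1.89% of all genes, so nothing is read from the count. Ndufa6 (ENSMUSG00000022450, chromosome 15, 82350140 to 82354322), an accessory subunit of complex I, had 103 and 111 CPM in the TPPB sums and 453, 347, 296 and 330 in the control sums. With TPPB and U0126 together it had 327 and 300.3 CPM, and with U0126 alone 318 and 300.8, so the TPPB sums were the low ones. The change against control was -1.90 ± 0.31 (adjusted p = 0.0128), where 1.89% of genes fell and 0.0800% rose. The call was lost without Control set 1 (adjusted p = 0.0859), TPPB set 1 (0.131) or TPPB set 2 (0.105). At an unadjusted p below 0.05, 10 members were lower, and DESeq2 called 4 lower and 1 higher, counts given without a share of all genes. All TPPB sums came from the first deposit round, which a term of the fit covered. The testis form Cox6b2 had 29.0 and 33.7 CPM with TPPB and 3.93, 1.40, 4.54 and 4.04 in controls, without overlap, but did not pass (3.57 ± 1.63, adjusted p = 0.376). A Cox6b2 read was present in 13 of 22 TPPB cells (59.1%, 36.4 to 79.3%) and 8 of 24 control cells (33.3%, 15.6 to 55.3%). Cells of a set are not replicates of a treatment, and these intervals leave out differences between sets. Ndufa4l2 had 4.00 and 21.7 CPM with TPPB and 20.9, 141, 93.7 and 163 in controls, which overlapped, and did not pass (adjusted p = 0.397).

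The TPPB cells differed in their whole composition, and this moved with the values above. The hepatocyte list summed to 635 to 2415 CPM in TPPB sums and 62323 to 159680 in controls, the cholangiocyte list to 15323 to 18010 and 342 to 5804, and the 20 most abundant genes took 12.1% of reads against 27.4%. The erythroid list reached 760.4 CPM in 1 TPPB sum, against 9.82 to 40.5 in controls. The part of these in the change of Ndufa6 was not tested. Summed over all members the level was 34673 ± 933 TPM with TPPB (n = 2) and 28895 ± 1606 in controls (n = 4), and 40803 ± 2021 and 41129 ± 1526 without the 20 most abundant genes. On the TMM scale most members leaned lower with TPPB. Their median log2 changes against control were -0.41, -0.54, -0.62, -0.56 and -0.36 for complexes I to V. Positive changes were found in 6 of 35, 0 of 4, 0 of 8, 4 of 17 and 3 of 17 members. U0126 against control gave no called member, where the shares of all genes were 0% and 0%, and neither did TPPB with U0126 against U0126 alone, where they were again 0% and 0%; at an unadjusted p below 0.05 edgeR had 0 members in both, and DESeq2 called 0 in both. The summed levels were 30788 ± 4762 TPM with U0126 and 27225 ± 1083 with both (n = 2 each). DLK+ explant cells gave 1 sum of at least 2 cells each and no test: 31909 TPM in control and 28571 with TPPB. The single cell of control set 1 had 29576 TPM.

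**Figure D5:**
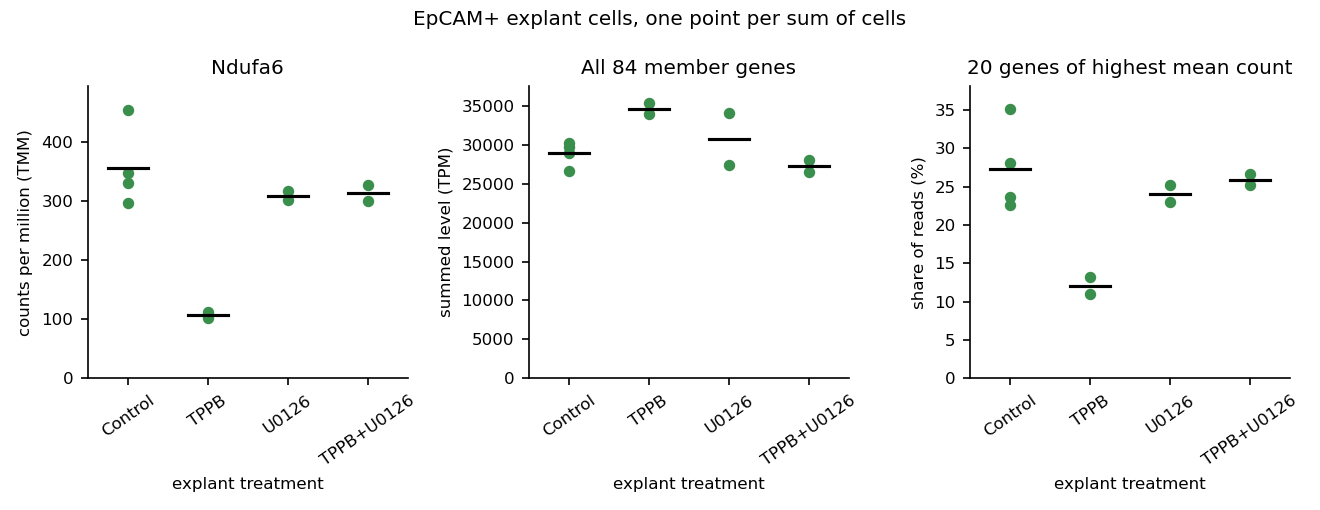
EpCAM+ explant cells by treatment (horizontal axes): CPM of Ndufa6 (left), summed TPM of the 84 members (middle) and share of reads of the 20 genes of highest mean count in percent (right), each axis from 0; points are sums of cells and bars are means. The TPPB sums are low for Ndufa6 (103 and 111 CPM), high in summed TPM and low in the share of the most abundant genes.

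Other genes of mitochondrial energy metabolism were described by lists. The shares of all genes called were 32.65% rises and 32.50% falls in bulk, 14.23% and 15.23% in DLK+ cells, and 19% higher and 16.01% lower in cholangiocytes, and all calls are on the TMM scale. Of the 5 carriers and subunits outside the symbol rule, 4 rose in bulk and none fell (median 0.88): cytochrome c1 (Cyc1, 1.30 ± 0.17), the synthase-associated Usmg5 (1.46 ± 0.18), cytochrome c (Cycs, 0.75 ± 0.14) and the acyl carrier Ndufab1 (0.88 ± 0.23), while the synthase inhibitor Atpif1 had -0.10. In DLK+ cells 2 rose and 1 fell (Atpif1, -0.68 ± 0.15). In cholangiocytes 4 were lower and Atpif1 was higher (0.35 ± 0.09). Of 46 assembly factors tested in bulk, 21 rose and 2 fell (median 0.46), with Coa6, a copper factor of complex IV, among the rises (2.36 ± 0.32) and Uqcc2, a factor of complex III, among the falls (-1.11 ± 0.22). In DLK+ cells 7 of 45 rose, near the share of all genes, and 2 fell (median -0.04), and in cholangiocytes 16 were lower and 1, Cox19 (0.78 ± 0.15), higher (median -0.39). Lrpprc, which stabilises mitochondrial mRNAs, was among the lower ones (-1.52 ± 0.18).

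Of the 13 enzymes of the citric acid cycle list, 11 rose and 2 fell in bulk (median 0.84), 5 rose and 2 fell in DLK+ cells (0.30), and 10 were lower and none higher in cholangiocytes (-0.71). Suclg1, of succinyl-CoA ligase, rose in bulk by 1.99 ± 0.20, while citrate synthase (Cs, -0.73 ± 0.19) and the catalytic subunit of isocitrate dehydrogenase (Idh3a, -0.81 ± 0.19) fell. Of 18 regulators of mitochondrial biogenesis, 7 rose and 5 fell in bulk (median 0.30), 4 rose and 3 fell in DLK+ cells (0.14), and 1 was higher and 6 lower in cholangiocytes (-0.36). In both time courses these counts lie near the shares of all genes, and nothing is read from them. The coactivator Ppargc1a rose by 3.05 ± 0.22 in bulk and the fatty acid sensor Ppara by 4.88 ± 0.40, whereas Nrf1 (-1.08 ± 0.17) and the mitochondrial transcription factor Tfam (-0.42 ± 0.13) fell. In cholangiocytes Ppara (-2.58 ± 0.40), Ppargc1a (-0.80 ± 0.20) and Tfam (-0.71 ± 0.10) were lower and Hif1a, the oxygen-sensing factor, was higher (0.53 ± 0.16).

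Mitochondrial ribosomal proteins, 76 genes, which make the subunits encoded in mitochondrial DNA, had 19 rises and 8 falls in bulk, both below the shares of all genes. In DLK+ cells 4 rose, below that share, and 14 fell, near it, where 63 of 81 chain members rose. In cholangiocytes 48 were lower and none higher, among them Mrpl12 (-1.35 ± 0.10). Mrps25 fell in both time courses, by a log2 change of -1.24 ± 0.21 in bulk and -1.61 ± 0.24 in DLK+ cells. Of 10 outer and inner membrane carriers, 5 rose and 2 fell in bulk, none rose and 2 fell in DLK+ cells, and 8 were lower and 1 higher in cholangiocytes. The higher one was the uncoupling protein gene Ucp2 (0.85 ± 0.12), and the import receptor Tomm20 was lower in all 3 comparisons (-0.77 ± 0.13, -1.22 ± 0.13 and -0.53 ± 0.08).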

How the data were processed

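Members and gene lists were chosen with earlier results of these data known. Raw read counts per gene for 18 bulk libraries and 529 cells were deposited by the authors without normalization. A directional kit on poly(A) RNA served for bulk and Smart-seq2 with ERCC spike-ins for cells, per the labels' protocols. TopHat2 2.1.0, Bowtie2 and HTSeq 0.6.0 on GRCm38/mm10 are named in the submitters' processing notes, and their settings, strand included, are not given in the sources used here. Gene length is another value per gene that the authors deposited, and positions are from GENCODE M21 on GRCm38.

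The test was that of edgeR 4.0.16 under R 4.3.3 (TMM, filterByExpr at a minimum count of 10, quasi-likelihood test, Benjamini-Hochberg adjusted p below 0.05 over all genes tested). The stages were fitted together, as were 42 of 46 embryo sums of at least 2 cells (2338674 to 28130886 reads), which left out 4 cells. The 10 EpCAM+ explant sums had treatment and deposit round as terms. The labels do not say what a set is, so p-values measure only how sets vary, which may be technical. TPM was computed from counts and gene length. SE is the ratio of a change to the root of its F value. Fits without 1 library kept the genes and dispersion trend of the full fit. Alternatives were DESeq2 1.42.0, RLE, ERCC reads as library size, GC and length trends, no filter, sums of at least 5 cells, blocks, no round term and, added after seeing the data, total reads as the library size. Intervals and floors (3 reads or cells) cover counting error only, since reads have no molecular identifiers. For shares of cells they also count cells as independent and leave out differences between sets. The tests were checked on simulated data.

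Named genes were core subunits (Ndufv1, Ndufs1, Sdha, Sdhb, Uqcrc1, Uqcrfs1, Cox4i1, Cox5a, Atp5a1, Atp5b), isoform sets, and per comparison and complex up to 2 largest rises and 2 largest falls among called members without overlap and with at least 10 CPM. A selection is given, and Ndufc1, Cox7b, Atp5k and others outside the rule were chosen after their values were seen. Results for 1 withheld gene are not reported here.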

Additional observations from a re-analysis of the deposited data

Results flagged for a closer look

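The control EpCAM+ explant cells had 4 sums, and the summed level of the complex III members in set 1 was 3027 TPM, far below the 3690 to 3816 TPM of the other 3. Its distance to the nearest sum was 0.839 of the whole range. Of 29 such checks, on summed levels and on levels of named genes, 1 stood out, and chance alone gives about 1 in 20. Only groups with at least 4 sums could be checked, which were these controls and the DLK+ cells of E17.5. This set is also the control sum with the highest Ndufa6 level (453 CPM) and the lowest Ndufa4l2 level (20.9 CPM).

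The change from E14.5 to E17.5 differed between cholangiocytes and DLK+ cells for 27 members by the interaction test, each time with the more negative change in cholangiocytes. Among the genes named above the differences of the log2 changes were -1.22 for Uqcrq, -1.06 for Ndufb10, -1.09 for Cox7b, -1.05 for Atp5o, -0.68 for Atp5b and -0.70 for Uqcrfs1. The part of the 20 most abundant genes, whose share of reads at E17.5 was 40.9% in DLK+ cells and 23.4% in cholangiocytes, was not tested.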

How the results depend on the processing

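Scaling moved the most results. On total reads, an alternative chosen after seeing the data, the called members numbered 26 (14 higher, 12 lower) for bulk E18.5 against E10.5, 2 for E11.5, 1 for E17.5 against E16.5, 47 (1 higher, 46 lower) for DLK+ cells E17.5 against E10.5, 2 for E13.5 against E10.5, 50 (all lower) for E17.5 against E13.5, 43 (5 higher, 38 lower) for cholangiocytes against DLK+ cells, 3 for the interaction and 0 for TPPB. Log2 changes that turned sign on total reads were, in bulk, Ndufv1 -0.35, Ndufs1 -0.75, Sdha -0.14, Uqcrc1 -0.12, Cox5a -0.15, Atp5a1 -0.40, Atp5b -0.12, Atp5g2 -0.90, Atp5g3 -0.20 and Ndufb2 -1.01, in DLK+ cells Sdhc -0.10, Sdhd -0.16, Atp5e -0.10, Atp5j -0.14 and Atp5b -0.29, and in the interaction Atp5b 0.0490 and Uqcrfs1 0.0299. With ERCC reads as the library size the counts were 6, 1 and 0 for the 3 DLK+ comparisons (E17.5 against E10.5, E13.5 against E10.5, E17.5 against E13.5), and 0 for cholangiocytes E17.5 against E14.5, for the interaction and for TPPB. The 5 cholangiocyte falls turned to 0.0564 (Ndufs8), 0.0211 (Sdha), 0.0854 (Uqcrc1), 0.15 (Atp5b) and 0.13 (Atp5o). Summed levels had log2 ratios, as shares of counts and as TPM without the 20 most abundant genes, of -0.0033 and 0.40 (bulk), -0.34 and 0.0850 (DLK+ cells) and -0.18 and -0.44 (cholangiocytes against DLK+ cells).

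DESeq2 called 3 for E12.5, 14 for E13.5, 1 for E15.5, 22 for E17.5, 14 for cholangiocytes E17.5 against E14.5, 48 for the interaction and 5 for TPPB. With GC and length trends taken out there were 3 for E13.5, 3 for E14.5, 7 for E17.5 and 1 for E18.5 against E17.5, and Uqcrb at E14.5 turned to -0.0204. With only the length trend taken out there were 6 for DLK+ E13.5, 2 for cholangiocytes E17.5 against E14.5 and 8 for the interaction. Without a filter there were 10 for E12.5, 1 for E15.5, 1 for E16.5, 12 for DLK+ E13.5, 3 for cholangiocytes E17.5 against E14.5, 12 for the interaction and 2 for TPPB. RLE gave 20 for DLK+ E13.5, the fit with no round term 2 for TPPB, and sums of at least 5 cells 1 for cholangiocytes E17.5 against E14.5 and 10 for the interaction. Of the same-numbered pairs, 8 of 36 in bulk and 10 of 20 in embryo sums correlated above 0.1, so not every pair did, and the numbers were not taken as pairing the samples. The replicate block gave 5 for E13.5 against 8 without it, and the call of Cox7a2l in cholangiocytes was lost under it (adjusted p = 0.0983); with GC and length trends the replicate block gave 2 for E13.5, 3 for E14.5, 3 for E17.5 and 1 for E18.5 against E17.5, and Uqcrb -0.0242.

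Leaving out 1 library or sum, the bulk counts ran from 73 to 78 (E18.5 against E10.5), 0 to 2 (E11.5), 0 to 14 (E12.5), 0 to 20 (E13.5), 3 to 10 (E14.5), 0 to 0 (E15.5 and E16.5), 0 to 17 (E17.5) and 0 to 0 (E18.5), those of DLK+ cells from 56 to 64 (E17.5 against E10.5), 11 to 23 (E13.5 against E10.5) and 21 to 29 (E17.5 against E13.5), those of cholangiocytes against DLK+ cells from 72 to 75, of cholangiocytes E17.5 against E14.5 from 1 to 8, of the interaction from 9 to 35 and of TPPB from 0 to 1, with 0 to 0 for the EpCAM+ hepatoblasts, U0126 and TPPB with U0126. Of the alternatives for named members 935 kept the call or its absence, 101 lost the call and 24 reversed, and the causes were not tested. A change of sign was counted as reversed only where the main or the alternative fit had a call. Read depth limited what could be said of Cox4i2, Cox6a2, Cox7b2, Cox8b and Cox8c, and 2 libraries a day and 2 sums in most explant groups limited the tests.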

Other observations

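Member reads per ERCC read measure respiratory chain RNA per cell only if all cells received equal spike-in, which was not tested. They were 0.50 ± 0.10 (SD, n = 3) in EpCAM+ cholangiocytes and 0.84 ± 0.08 (n = 3) in DLK+ cells at E14.5, and 0.67 ± 0.27 (n = 3) and 1.62 ± 0.43 (n = 4) at E17.5. Among single cells at E17.5 the median was 0.652 in cholangiocytes and 1.77 in DLK+ cells, and the values of cholangiocytes reached 1.60 while those of DLK+ cells began at 0.695, so the cells overlapped. Reads of all genes per ERCC read had medians of 40.6 and 97.7 in the same cells, so a gap was not particular to the members. In the control EpCAM+ explant sums, member reads per ERCC read were 2.33, 0.84, 0.48 and 0.69, so they varied widely between sets of a treatment. EpCAM+ cells annotated as cholangiocytes before E14.5 numbered 2, 3 and 10 at E11.5, E12.5 and E13.5 and gave 1 sum a day, with summed levels of 34829, 32193 and 32363 TPM beside 39243, 40169 and 40513 TPM in DLK+ cells of those days, with no test. Cox4i2 had reads in 0 of 35 DLK+ cells and 2 of 34 EpCAM+ cholangiocytes at E17.5. In EpCAM+ explant cells it had reads in 4 of 24 controls, 5 of 22 with TPPB, 5 of 15 with U0126 and 2 of 9 with both. In DLK+ explant cells it had none in 6 controls and none in 6 with TPPB. Gate, age and culture differ between these groups, and no test was made.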
